A study of Mus musculus with 9 samples.

Results

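Chemokines, cytokines and target genes of NF-κB were followed in a mouse fibroblast line given PPARγ. They were taken from a list of 42 genes by their symbol in the platform annotation, with the probe set of highest mean over the 9 arrays kept for each gene. Of these, 41 were measured among 18193 genes in all, and Nfkb1 is not analysed here. The cells were NIH-CAR, 1 clone of NIH-3T3 fibroblasts that stably carries the coxsackie-adenovirus receptor CARΔ1, at passage 12 and grown in 10% calf serum. All 3 groups, of 3 arrays each, received an adenovirus for 2 h at 80% confluency. The empty-vector group (AdEmpty) then received the vehicle DMSO. The full-length group (AdHA-PPARg2) expressed HA-tagged PPARγ2, and the deleted group (AdHA-PPARgCDE) expressed the HA-tagged receptor without its A/B-domain, here called PPARγCDE or the deleted receptor. Both receptor groups received 1 µM rosiglitazone, so receptor and agonist changed together and cannot be told apart against empty vector. The labels name no inflammatory stimulus, and the promoter of the transgenes and the time to harvest are not given in the sources used here.

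NF-κB is a family of dimeric transcription factors held in the cytoplasm by IκB proteins. Signals from TNF, interleukin-1 and Toll-like receptors lead to the breakdown of IκB, and the freed dimers enter the nucleus. There they switch on chemokines that attract leukocytes, cytokines, adhesion molecules and enzymes of inflammation, together with IκBα and A20, which end the response. Fibroblasts make many of these products. PPARγ, a nuclear receptor best known as the regulator of fat cell formation, is also known to lower inflammatory transcripts when bound by its agonists, above all in macrophages. The study asked in which genes the A/B-domain, the N-terminal part of the receptor, matters.

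The values below are deposited log2 levels, and a difference of 1 is a change by a factor of 2. Adjusted p-values are those of limma with Benjamini-Hochberg adjustment over all 18193 genes, and a gene was called at an adjusted p under 0.05. Pparg stood at 7.06 ± 0.10 (SD, n = 3) with empty vector, 11.25 ± 0.84 with full-length PPARγ2 and 11.34 ± 0.63 with PPARγCDE. The 3 arrays numbered 3, 1 in each group, stood apart: their scores on the first principal component ran from 20.6 to 42.5 against -21.1 to 0 elsewhere, and their 18S ribosomal RNA controls read 7.59 to 8.67 against 10.51 to 12.44. The 3′ minus 5′ difference of the actin controls, a measure of RNA integrity, lay between 0.20 and 0.26 on every array. All 12 fibroblast markers had means above 6.68, the lowest array median, as did 4 of 14 leukocyte, 0 of 6 endothelial and 2 of 6 epithelial markers. The mean of the leukocyte list ran from 6.599 to 6.71, 6.52 to 6.75 and 6.41 to 6.71 over the arrays of the empty-vector, full-length and deleted groups, and no marker of these 4 lists was called in any comparison. The median difference of the leukocyte list was -0.04 with full-length PPARγ2 and -0.05 with PPARγCDE. Ptprc, at 0.27 its highest marker with full-length PPARγ2, had all full-length arrays above the empty-vector arrays. Cd14 was its lowest marker in both comparisons. Cd14, a lipopolysaccharide co-receptor on the leukocyte list, read 7.23, 6.93 and 8.27 with empty vector, 6.84, 6.51 and 6.83 with full-length PPARγ2 and 6.97, 6.30 and 7.43 with PPARγCDE. All 3 full-length arrays lay below the empty-vector arrays (4.86% of all genes), and PPARγCDE was below empty vector in each number (19% of all genes). Its differences were -0.75 (adjusted p = 0.894) and -0.58 (adjusted p = 1.00), and the part of leukocyte transcripts in the results below was not tested. Of the 41 members, 12 had means below 6.68: Cxcl2, Cxcl10, Il1a, Il6, Lif, Tslp, Nos2, Lcn2, Saa3, Mmp3, Mmp13 and Traf1. The table holds no detection calls, so whether these lay above background was not tested.

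A small group of members was lower in cells with PPARγ and most of the list was not. Cxcl5 and Vcam1 fell with full-length PPARγ2, with differences of -3.05 and -1.57, and they were the 2 of 41 members called lower, where 0.154% of all genes were called lower. In RNA of whole cultures, fewer expressing cells and less RNA per cell cannot be told apart. No member was called higher, where 0.5% of all genes were, and 5 members had an unadjusted p under 0.05 in either direction, where 6.19% of all genes had. Lower by at least 0.8 were 6 members, Cxcl5, Vcam1, Ptgs2, Csf1, Ccl2 and Ccl7, where 0.61% of all genes were. Higher by at least 0.8 was 1, Icam1, with a single low empty-vector array described below (0.951% of all genes). The arrays of the groups did not overlap in 5 lower members, Cxcl5, Csf1, Vcam1, Ptgs2 and Rela (4.86% of all genes), and in 2 higher ones, Ptges and Sod2 (4.52%). The centre of the list lay near that of all genes: the median difference was -0.02 over the members and 0.00 over all genes, and 26 members lay within 0.25 of no change. For Ccl2 and Ccl7 the arrays of the 2 groups overlapped. Without the arrays numbered 3 the count was 3 lower, Ptgs2 being added (adjusted p = 0.00433), and 0 higher, where 0.192% and 0.665% of all genes were called. Between full-length PPARγ2 and empty vector, deviations of arrays of equal number from their group means correlated at -0.12, 0.63 and 0.26 for numbers 1, 2 and 3. Number 1 did not pair, so a fit with the replicate number as a block is only an alternative for that comparison. The unblocked p-values given for it leave out variation shared by arrays of equal number. With the block more members were called, and these counts are given at the end with the alternatives.

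With the receptor that lacks its A/B-domain the same 6 members were again below empty vector on average, by 0.32 to 1.72. None of the 41 was called by limma, lower or higher, where 0.011% and 0.159% of all genes were, and 5 had an unadjusted p under 0.05, where 3.79% of all genes had. Arrays of equal number varied together in this comparison. With the replicate number as a block 2 members, Csf1 and Ptgs2, were called lower and 1, Il6, was called higher, where 0.253% and 0.66% of all genes were. Lower by at least 0.8 were 4 members, Cxcl5, Vcam1, Csf1 and Tslp (0.214% of all genes), and higher by as much were 2, Il6 and Icam1 (0.588%). The arrays did not overlap in 4 lower members, Cxcl5, Tslp, Vcam1 and Rela (4.03% of all genes), and in 2 higher ones, Ptges and Sod2 (3.86%). Between arrays of equal number, 12 members were lower in all 3 numbers (19% of all genes) and 7 were higher (14.8%), and with the block 11 had an unadjusted p under 0.05 (9.84%). The members' median difference was -0.05, beside -0.03 over all genes. Without the arrays numbered 3, Ptgs2 was the 1 member called lower (adjusted p = 0.0402) and none was called higher, where 0.033% and 0.269% of all genes were. Both comparisons share the empty-vector arrays, so their values are given side by side and not as independent results.

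**Figure D1:**
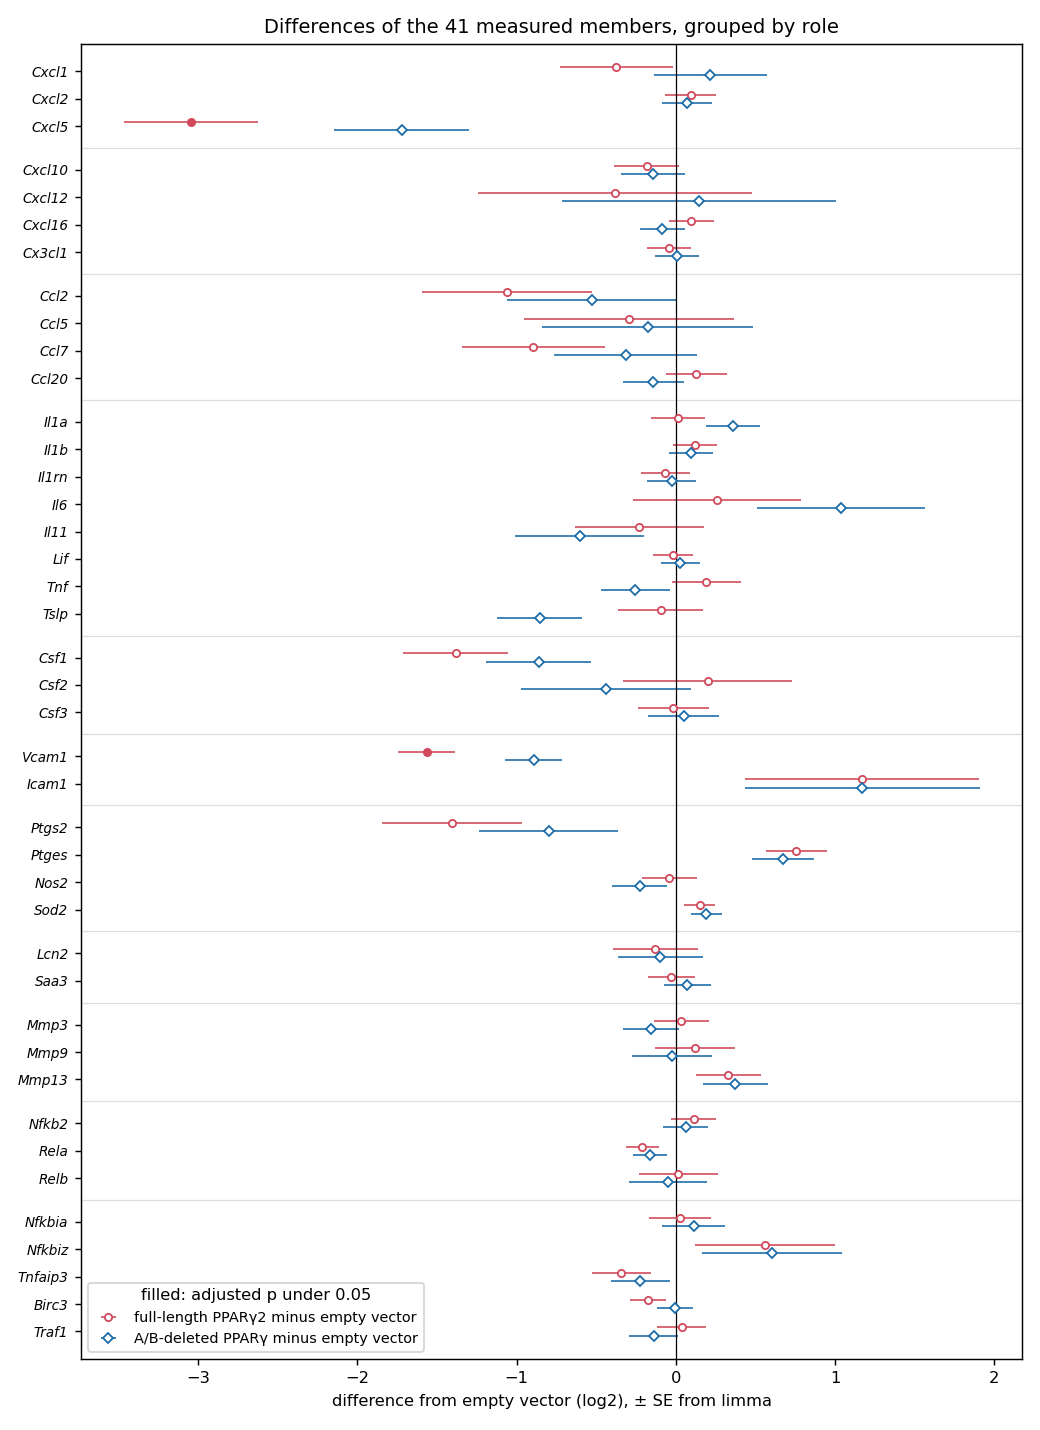
Difference from empty vector on the log2 scale (horizontal axis, mean ± SE from limma) for each of the 41 measured members, grouped by role, with full-length PPARγ2 as circles and PPARγCDE as diamonds. Filled symbols passed an adjusted p of 0.05, which only Cxcl5 and Vcam1 with full-length PPARγ2 did; Cxcl5 lies farthest from 0, at -3.05 and -1.72.

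Promoters are shown for 4 members described below that the promoter set held. Csf1 and Ptgs2 lay below empty vector with both receptors, Il6 was higher with PPARγCDE, and Cxcl1 is a close relative of Cxcl5 that was not called. Each is the 250 bases before the annotated start, from RefSeq on GRCm38.p6. The promoter set used here held 29 of the 41 members, and Cxcl5, Vcam1, Ccl2 and Ccl7 were not in it. Capitals mark the κB motif GGGANNTTC, searched on both strands. It is a narrow form of that motif, and κB-like stretches that differ from it are not marked or counted. Cxcl1 lies at chr5:90890995-90891244 on the plus strand, Il6 at chr5:30012864-30013113 on the plus strand, Csf1 at chr3:107760470-107760719 on the minus strand and Ptgs2 at chr1:150099781-150100030 on the plus strand.
Cxcl1: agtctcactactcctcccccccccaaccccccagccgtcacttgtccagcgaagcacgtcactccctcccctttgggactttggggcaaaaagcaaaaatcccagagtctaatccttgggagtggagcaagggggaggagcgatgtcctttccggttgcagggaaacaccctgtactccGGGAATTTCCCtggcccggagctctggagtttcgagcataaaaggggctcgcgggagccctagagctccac
Il6: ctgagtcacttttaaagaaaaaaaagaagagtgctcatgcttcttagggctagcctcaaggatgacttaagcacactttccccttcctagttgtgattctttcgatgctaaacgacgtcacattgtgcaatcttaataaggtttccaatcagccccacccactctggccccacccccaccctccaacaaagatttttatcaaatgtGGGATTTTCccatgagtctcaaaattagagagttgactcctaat
Csf1: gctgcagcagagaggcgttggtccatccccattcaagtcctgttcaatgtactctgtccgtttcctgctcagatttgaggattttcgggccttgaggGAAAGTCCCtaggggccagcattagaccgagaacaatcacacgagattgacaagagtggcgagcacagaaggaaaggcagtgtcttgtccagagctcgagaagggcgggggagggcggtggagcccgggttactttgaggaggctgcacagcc
Ptgs2: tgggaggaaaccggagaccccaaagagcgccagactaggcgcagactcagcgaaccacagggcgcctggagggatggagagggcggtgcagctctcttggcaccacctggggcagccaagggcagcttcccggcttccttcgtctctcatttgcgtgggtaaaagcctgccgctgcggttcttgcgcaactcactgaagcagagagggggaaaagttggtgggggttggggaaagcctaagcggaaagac
The Cxcl1 stretch holds 2 overlapping matches, GGGAATTTC and, on the other strand, GAATTTCCC, between 71 and 61 bases before the start. In Il6 the match GGGATTTTC runs from 44 to 36 bases before the start, and in Csf1 the match GAAAGTCCC, on the other strand, runs from 153 to 145. These letters are not in the Ptgs2 window. The motif was found in 7 of the 29 members with a promoter in the table (Cxcl1, Cxcl2, Cxcl10, Il6, Csf1, Nfkb2 and Nfkbia) and in 3.7% of the 27025 genes there, and the list was chosen for genes known as NF-κB targets. A match is a description of the letters and was not tested as a binding site.

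Among the chemokines that attract neutrophils, Cxcl5 was the member with the largest response. With empty vector its arrays numbered 1, 2 and 3 read 8.76, 10.08 and 8.45. They read 6.20, 6.55 and 5.41 with full-length PPARγ2, and 7.01, 7.65 and 7.46 with PPARγCDE. The 3 groups did not overlap at any point, and PPARγCDE lay between the other groups. Cxcl5 was 8.26-fold lower with full-length PPARγ2, a difference of -3.05 (SE 0.42, adjusted p = 0.0124), and the difference was -1.72 (SE 0.42, adjusted p = 0.401) with PPARγCDE. No other of the 18193 genes had a lower difference in either comparison. The call with full-length PPARγ2 held when any 1 of the 9 arrays was left out (adjusted p from 0.0187 to 0.0478) and without the arrays numbered 3 (-3.05, adjusted p = 0.0279), but not in a fit of the 6 compared arrays alone (adjusted p = 0.0537).

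None of the related chemokines was called. Cxcl1, a ligand of the same neutrophil receptor CXCR2 as Cxcl5, stood at 8.45 ± 0.46, 8.08 ± 0.58 and 8.67 ± 0.54 with empty vector, PPARγ2 and PPARγCDE (SD, n = 3), and its differences of -0.37 and 0.22 were not called. Cxcl2, the third ligand of that kind, was low in the array range, at 4.77 ± 0.23, 4.86 ± 0.16 and 4.84 ± 0.19. The other chemokines with a CXC or CX3C motif, Cxcl10, Cxcl12, Cxcl16 and Cx3cl1, differed from empty vector by -0.38 to 0.10 with full-length PPARγ2 and by -0.14 to 0.15 with PPARγCDE, with 0 of 4 called. Other probe sets widened this. Over the 3 of Cxcl12 the differences ran from -0.78 to 0.15 with full-length PPARγ2 and from -0.04 to 0.15 with PPARγCDE. Over the 4 of Cx3cl1 they ran from -0.74 to -0.04 and from -0.35 to 0.01. Cxcl12, which holds CXCR4-bearing cells in tissues, varied more between replicate numbers than between groups, from 6.66 to 7.46 on the arrays numbered 3 and from 9.49 to 10.02 on those numbered 2.

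The monocyte chemokines Ccl2 and Ccl7, neighbouring genes whose products bind the receptor CCR2, were lower by similar amounts. Ccl2 read 9.98, 10.84 and 9.40 with empty vector, 8.69, 10.00 and 8.35 with full-length PPARγ2 and 9.15, 10.48 and 8.99 with PPARγCDE, on arrays 1, 2 and 3. In each number the full-length array was lowest and the empty-vector array highest, while the groups overlapped. The differences were -1.06 (SE 0.54, adjusted p = 0.942) and -0.53 (SE 0.54, adjusted p = 1.00). Ccl7 read 7.84, 8.84 and 8.02 with empty vector, 6.91, 8.22 and 6.89 with full-length PPARγ2 and 7.35, 8.71 and 7.69 with PPARγCDE, the same order in each number. Its differences were -0.89 (SE 0.45, adjusted p = 0.942) and -0.32 (SE 0.45, adjusted p = 1.00). By number its full-length difference was -0.94, -0.62 and -1.13. With the block both Ccl2 and Ccl7 were called lower with full-length PPARγ2, as given at the end, where 1.74% of all genes were. Ccl5, a T cell attractant, and Ccl20, the ligand of CCR6, differed by -0.29 and 0.13 with full-length PPARγ2 and by -0.18 and -0.14 with PPARγCDE, and neither was called.

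Of the cytokines, Il6 was the member called higher, with PPARγCDE and the replicate block. Interleukin-6 is a fever and acute phase cytokine that fibroblasts release on stimulation. Its arrays read 6.93, 5.71 and 5.64 with empty vector, 7.34, 5.91 and 5.80 with full-length PPARγ2 and 8.05, 6.57 and 6.77 with PPARγCDE. PPARγCDE was highest in each number, the arrays numbered 1 lay above the other 2 in every group, and the groups overlapped. Il6 was higher than empty vector by 1.04 with PPARγCDE, uncalled without the block (SE 0.53, adjusted p = 1.00) and called with it (SE 0.09, adjusted p = 0.0118). With full-length PPARγ2 the difference was 0.26 (SE 0.53, adjusted p = 1.00). Most of these levels lie at the lower part of the array range, near 6.68.

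Tslp, an epithelial and stromal cytokine that acts on dendritic cells, had its lowest values with PPARγCDE. It read 5.67, 4.99 and 4.80 with empty vector, 5.05, 4.61 and 5.52 with full-length PPARγ2 and 4.44, 4.10 and 4.36 with PPARγCDE, and all 9 values were below 6.68. The deleted group lay below both other groups, but the difference of -0.86 from empty vector was not called (SE 0.27, adjusted p = 0.787; adjusted p = 0.251 with the block). The other cytokines, Il1a, Il1b, the interleukin-1 receptor antagonist Il1rn, Il11, Lif and Tnf, differed by -0.60 to 0.36 from empty vector with either receptor and none was called.

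Csf1, the growth factor of macrophages, lay below empty vector with both receptors, and the other colony-stimulating factors were not called. It read 11.12, 11.72 and 10.77 with empty vector, 9.88, 10.35 and 9.23 with full-length PPARγ2 and 10.28, 10.78 and 9.97 with PPARγCDE. All 3 full-length arrays lay below all 3 empty-vector arrays, and 1 deleted-receptor array, at 10.78, reached the lowest empty-vector value. The difference with full-length PPARγ2 was -1.38 (SE 0.33, adjusted p = 0.154), and it ran from -1.64 to -0.60 over its 4 probe sets. With PPARγCDE it was -0.86, not called without the block (SE 0.33, adjusted p = 1.00) and called with it (SE 0.09, adjusted p = 0.0173), with -0.84, -0.94 and -0.80 between arrays of equal number. With the block the full-length difference was called as well, as given at the end with the alternatives. The adjusted p-values here come from unlike fits and do not rank the receptors. Csf1r, the receptor for Csf1, was not called and stood at 9.94 ± 0.34, 9.90 ± 0.54 and 9.72 ± 0.17 in the 3 groups. Csf2, which supports granulocytes and macrophages, and Csf3, which supports neutrophils, differed by 0.20 and -0.02 with full-length PPARγ2 and by -0.44 and 0.05 with PPARγCDE, uncalled.

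Vcam1, the endothelial and stromal adhesion molecule bound by integrin α4β1, was the other called member. It read 9.21, 9.72 and 9.52 with empty vector, 7.92, 7.86 and 7.97 with full-length PPARγ2 and 8.29, 8.56 and 8.92 with PPARγCDE. As in Cxcl5, the 3 groups were apart and PPARγCDE lay in between. The difference was -1.57 with full-length PPARγ2 (SE 0.18, adjusted p = 0.00444), 2.96-fold lower, and the call held when any 1 array was left out (adjusted p up to 0.0318) and without the arrays numbered 3 (adjusted p = 0.017). With PPARγCDE it was -0.89 (SE 0.18, adjusted p = 0.195; adjusted p = 0.0627 with the block). The 3 probe sets of Vcam1 disagreed in size, from -1.57 to -0.26 with full-length PPARγ2 and from -0.89 to -0.20 with PPARγCDE. Icam1, the ligand of leukocyte β2 integrins, had differences of 1.17 and 1.17 that rested on 1 array: its second empty-vector array read 3.83 and the other 8 arrays read 6.98 to 7.48. Without that array its differences were 0.06 and 0.06.

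The enzymes that make prostaglandin E2 lay on opposite sides of empty vector. Ptgs2 encodes cyclooxygenase-2, which makes the prostaglandin precursor, and read 11.32, 11.25 and 12.14 with empty vector, 9.77, 9.73 and 10.99 with full-length PPARγ2 and 10.45, 10.26 and 11.60 with PPARγCDE. The arrays numbered 3 were the highest of each group, and the full-length arrays all lay below the empty-vector arrays. The difference was -1.41 with full-length PPARγ2 (SE 0.44, adjusted p = 0.374) and, without the arrays numbered 3, -1.53 (adjusted p = 0.00433). With PPARγCDE it was -0.80, not called without the block (SE 0.44, adjusted p = 1.00) and called with it (SE 0.11, adjusted p = 0.0331), and -0.93 without the arrays numbered 3 (adjusted p = 0.0402). As for Csf1, the block also called the full-length difference, as given at the end, so the blocked value here does not rank the receptors. A further probe set of Ptgs2 gave -1.63 and -0.74.

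Ptges encodes the microsomal synthase that turns the precursor into prostaglandin E2, and it lay above empty vector with both receptors, uncalled. It read 9.16, 9.25 and 9.41 with empty vector, 9.68, 10.05 and 10.37 with full-length PPARγ2 and 9.64, 10.09 and 10.12 with PPARγCDE, so that each receptor group lay above empty vector. The differences were 0.76 (SE 0.19, adjusted p = 0.2) and 0.67 (SE 0.19, adjusted p = 0.645; adjusted p = 0.0566 with the block), and over its 3 probe sets they ran from 0.76 to 1.02 and from 0.67 to 0.75. Sod2, the mitochondrial superoxide dismutase, was the other member above empty vector without overlap in both receptor groups, at 10.19 ± 0.06, 10.34 ± 0.05 and 10.38 ± 0.05, and its differences of 0.15 and 0.19 were not called. Such separation upwards in both comparisons was seen in 2 of 41 members and 2.29% of all genes. Nos2, the inducible nitric oxide synthase, was at 6.08 ± 0.10, 6.04 ± 0.25 and 5.85 ± 0.28.

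**Figure D2:**
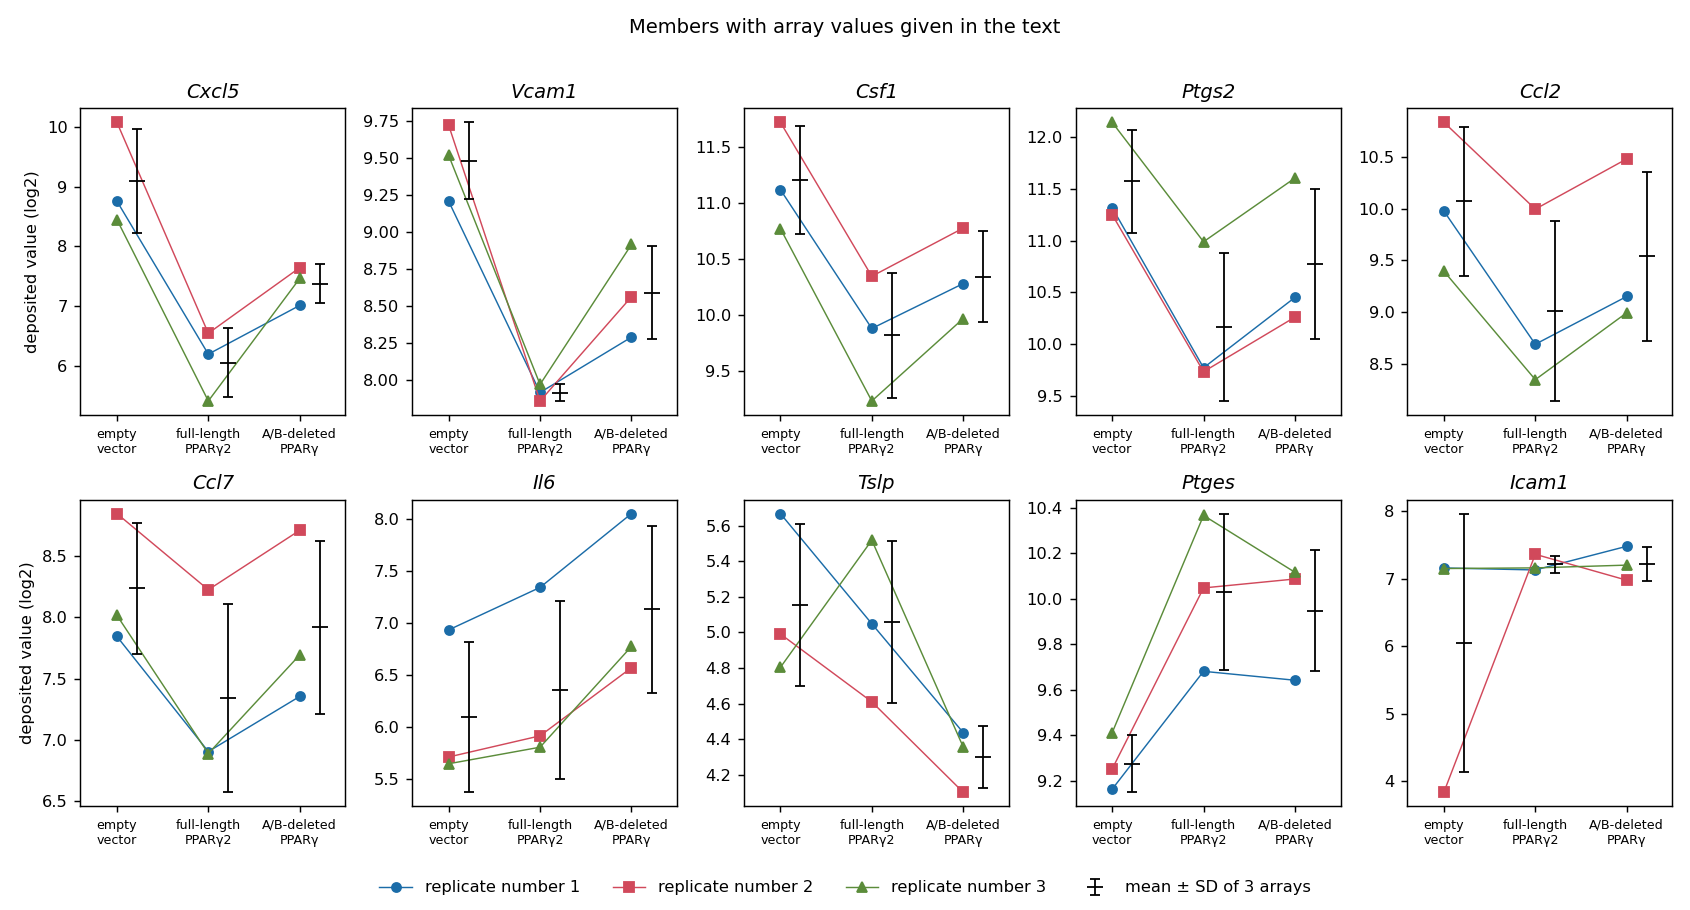
Deposited log2 level (vertical axes, each scaled to its gene) of 10 members that were called in some fit or differed by at least 0.8, in empty vector, PPARγ2 and PPARγCDE; lines join arrays of equal replicate number, and black bars are mean ± SD of 3 arrays. In Cxcl5 and Vcam1 the 3 groups are apart, Ptges is higher with both receptors, and the single low point of Icam1 is the second empty-vector array at 3.83.

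The acute phase genes Lcn2, an iron-scavenging lipocalin, and Saa3, a serum amyloid protein, and the matrix metalloproteinases Mmp3, Mmp9 and Mmp13 were not called in any comparison. Their differences from empty vector ran from -0.15 to 0.37. The means of 4 of these 5 genes lay below 6.68, and Mmp9, the gelatinase, stood at 7.54 ± 0.50, 7.66 ± 0.32 and 7.52 ± 0.21.

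None of the transcription factor subunits was called. Rela, which encodes the p65 subunit, read 9.98, 9.97 and 10.06 with empty vector, 9.82, 9.87 and 9.69 with full-length PPARγ2 and 9.92, 9.74 and 9.86 with PPARγCDE. Both receptor groups lay below empty vector, with differences of -0.21 (SE 0.11, adjusted p = 0.941) and -0.16 (SE 0.11, adjusted p = 1.00), and neither difference was called. Separation downwards in both comparisons was seen in 3 of 41 members (Cxcl5, Vcam1 and Rela) and 2.05% of all genes. Nfkb2 and Relb, of the non-canonical pathway, differed by -0.05 to 0.11. A further probe set of Nfkb2 gave -0.20 with full-length PPARγ2 and -0.24 with PPARγCDE.

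No feedback gene of the pathway was called. Nfkbia, which encodes IκBα and is itself switched on by NF-κB, was at 11.52 ± 0.29, 11.55 ± 0.27 and 11.64 ± 0.23, and its differences of 0.03 (95% interval -0.41 to 0.47) and 0.11 (-0.33 to 0.55) do not exclude a modest change. Tnfaip3, which encodes the ubiquitin-editing enzyme A20, differed by -0.34 and -0.22. Nfkbiz, a nuclear IκB protein that promotes Il6 transcription, differed by 0.56 (SE 0.44) and 0.61 (SE 0.44) and was uncalled. Over its 3 probe sets the differences ran from 0.21 to 0.56 with full-length PPARγ2 and from 0.24 to 0.61 with PPARγCDE. Birc3 and Traf1, which act at TNF receptors, differed by -0.17 to 0.04. Over the 2 probe sets of each, the full-length differences ran from -0.17 to 0.11 in Birc3 and from -0.28 to 0.04 in Traf1. None of these 5 was called in any comparison.

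The direct comparison of the receptors asks whether removal of the A/B-domain changed these levels. None of the 41 members was called by limma, with or without the block, and neither was any of the 18193 genes (0% in both directions). Without the block, 3 members had an unadjusted p under 0.05, Cxcl5, Vcam1 and Tslp, where 1.52% of all genes had. With the block there were 9, the other 6 being Cxcl12, Ccl2, Ccl7, Il6, Csf1 and Ptgs2, where 4.32% of all genes had. Each of these 9 except Tslp was higher with PPARγCDE. Tslp, at -0.76 (-1.36 to -0.16), was the 1 member whose deleted-receptor arrays lay wholly below the full-length arrays (3.14% of all genes). The members' median difference was 0.04, beside -0.01 over all genes.

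Cxcl5 was higher with PPARγCDE than with full-length PPARγ2 by 1.32 (SE 0.42, adjusted p = 1.00), with an unadjusted 95% interval from 0.38 to 2.27, and by 0.82, 1.10 and 2.05 between arrays 1, 2 and 3. It had the second highest difference of all genes in this comparison, where a separation of the groups upwards was seen in 3 of 41 members (Cxcl5, Vcam1 and Birc3) and 2.02% of all genes. Vcam1 was higher by 0.67 (SE 0.18, adjusted p = 1.00), with an interval from 0.27 to 1.08 and by 0.37, 0.70 and 0.94 between arrays of equal number. For Il6 the difference was 0.78 (-0.41 to 1.97), for Ptgs2 0.61 (-0.37 to 1.59), for Ccl7 0.58 (-0.43 to 1.59), for Ccl2 0.53 (-0.67 to 1.74) and for Csf1 0.52 (-0.22 to 1.26). These intervals leave the arrays' pairing out, hold 0 and reach beyond 1. With the block the intervals of these 5 were narrower, for example 0.30 to 0.74 in Csf1 and 0.55 to 1.01 in Il6, and their adjusted p-values ran from 0.215 to 0.68. Ptges differed by -0.08 (-0.52 to 0.35), an interval that leaves out differences beyond those bounds.

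Higher with PPARγCDE in all 3 numbers were 14 of 41 members, where 13.6% of all genes were. They were Cxcl1, Cxcl5, Cxcl12, Ccl2, Ccl7, Il1a, Il6, Csf1, Vcam1, Ptgs2, Sod2, Nfkbia, Tnfaip3 and Birc3. Lower in all 3 were Tslp, Nos2 and Mmp3, 3 of 41, where 12.4% of all genes were. Over the whole list the mean with PPARγCDE lay between the other means in 17 of 41 members and 39.7% of all genes. It did so in each of the 6 members that were lower by at least 0.8 with full-length PPARγ2, and in 98.2% of the 111 genes of that kind. The intermediate level is therefore shared by nearly all genes chosen in this way, and the full-length values that choose the genes enter it.

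**Figure D3:**
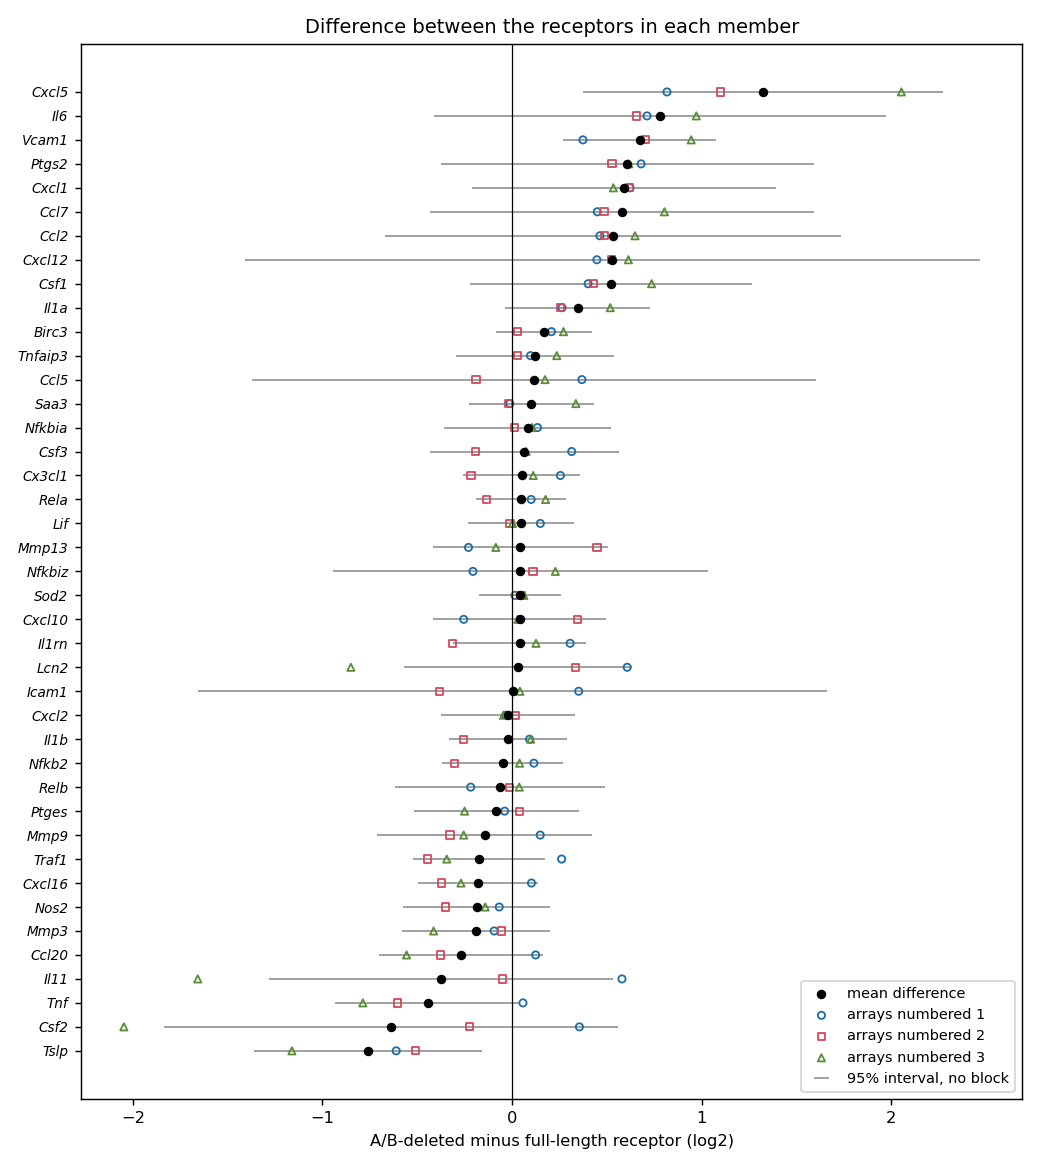
Deleted minus full-length receptor on the log2 scale (horizontal axis) in each of the 41 members, as mean with its unadjusted 95% interval and as the 3 differences between arrays of equal number. Cxcl5 lies highest at 1.32 and Tslp lowest at -0.76, and no member was called after adjustment over all genes.

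Signalling genes upstream of NF-κB and further targets were read from lists of the pathway. Over all genes, 0.154% were called lower and 0.5% higher with full-length PPARγ2, and 0.011% and 0.159% with PPARγCDE. The shares were 0.253% and 0.66% with PPARγCDE and the block. Without the arrays numbered 3 they were 0.192% and 0.665% with full-length PPARγ2, and 0.033% and 0.269% with PPARγCDE. At such shares a count of 0 in a short list does not show that its genes were unchanged. Of 31 measured genes of the signalling machinery, from receptor adaptors to IκB kinases, 0 were called in either direction with either receptor, and their medians were -0.07 and -0.06. Cyld, a deubiquitinase that restrains the pathway, had the lowest difference, -0.70 and -0.50, and was not called, and Irak2, a kinase of interleukin-1 signalling, was higher with PPARγCDE by 0.57, called with the block alone (adjusted p = 0.0469). Of 33 receptors 0 were called. Il1rap, the accessory chain of the interleukin-1 receptor, was at -1.17 (adjusted p = 0.598) and -0.71 (adjusted p = 1.00), the scavenger receptor Ackr3 for Cxcl12 at -1.03 and -0.78, and Tlr4, the lipopolysaccharide receptor, at -0.99 (adjusted p = 0.214) and -0.76 (adjusted p = 0.916). Without the arrays numbered 3, Tlr4 was called lower with full-length PPARγ2 (-1.15, adjusted p = 0.0235).

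Of 36 further NF-κB targets 1 was called lower with full-length PPARγ2, where 0.154% of all genes were. It was Tnfaip6, which encodes a hyaluronan-binding anti-inflammatory protein and fell from 8.49 ± 0.31 to 6.81 ± 0.25 (adjusted p = 0.0043). It was at 7.34 ± 0.19 with PPARγCDE, a difference of -1.15 that was called with the block alone (adjusted p = 0.0697 without, 0.0199 with it). Other targets stood on the opposite side. Tnfaip2 was higher with PPARγCDE by 1.27 (adjusted p = 0.506 without the block, 0.028 with it) and with full-length PPARγ2 by 1.32 (adjusted p = 0.194). Without the arrays numbered 3 it was called in both comparisons, at 1.45 (adjusted p = 0.0292) and 1.39 (adjusted p = 0.0171). The chemokine gene Ccl9 differed with full-length PPARγ2 and PPARγCDE by 1.54 (adjusted p = 0.221) and 1.00 (adjusted p = 1.00). The medians of this list were 0.05 and -0.08. Of 20 interferon response genes 0 were called with either receptor, with medians of -0.03 and -0.11 and differences between -0.33 and 0.19.

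The last list mixes genes of the glucocorticoid, cAMP and AP-1 responses. It holds transcription factors such as the AP-1 and C/EBP families and Egr1, and response genes such as Fkbp5, a co-chaperone, Dusp1, a phosphatase, and Per1, a clock gene. Of its 20 genes 3, all of them transcription factor genes, fell with full-length PPARγ2: Cebpd by 1.97 (adjusted p = 0.00935), Egr1 by 1.82 (adjusted p = 0.00499) and the AP-1 subunit gene Jun by 1.07 (adjusted p = 0.0486). Over all genes 0.154% were called lower there, and 0.253% lower and 0.66% higher with PPARγCDE and the block. The call of Jun was lost without any 1 array but the second full-length array, and the call of Cebpd without that array (adjusted p = 0.055) or with the mean of its probe sets (-1.64, adjusted p = 0.108). Without the arrays numbered 3 Jun was uncalled (-0.88, adjusted p = 0.198), and Fosl2 with full-length PPARγ2 (-1.06, adjusted p = 0.0166) and Egr1 with PPARγCDE (-1.42, adjusted p = 0.0294) were called lower. With PPARγCDE 0 of 20 were called without the block, and with it Cebpd (-1.44, adjusted p = 0.0168), Egr1 (-1.31, adjusted p = 0.0203) and Fosl2 (-0.72, adjusted p = 0.0465) were lower and Fosl1 (0.54, adjusted p = 0.0285), a further AP-1 gene, was higher. The medians were -0.10 and -0.15. The part of these genes in the levels of Cxcl5, Vcam1 and the others was not tested.

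**Figure D4:**
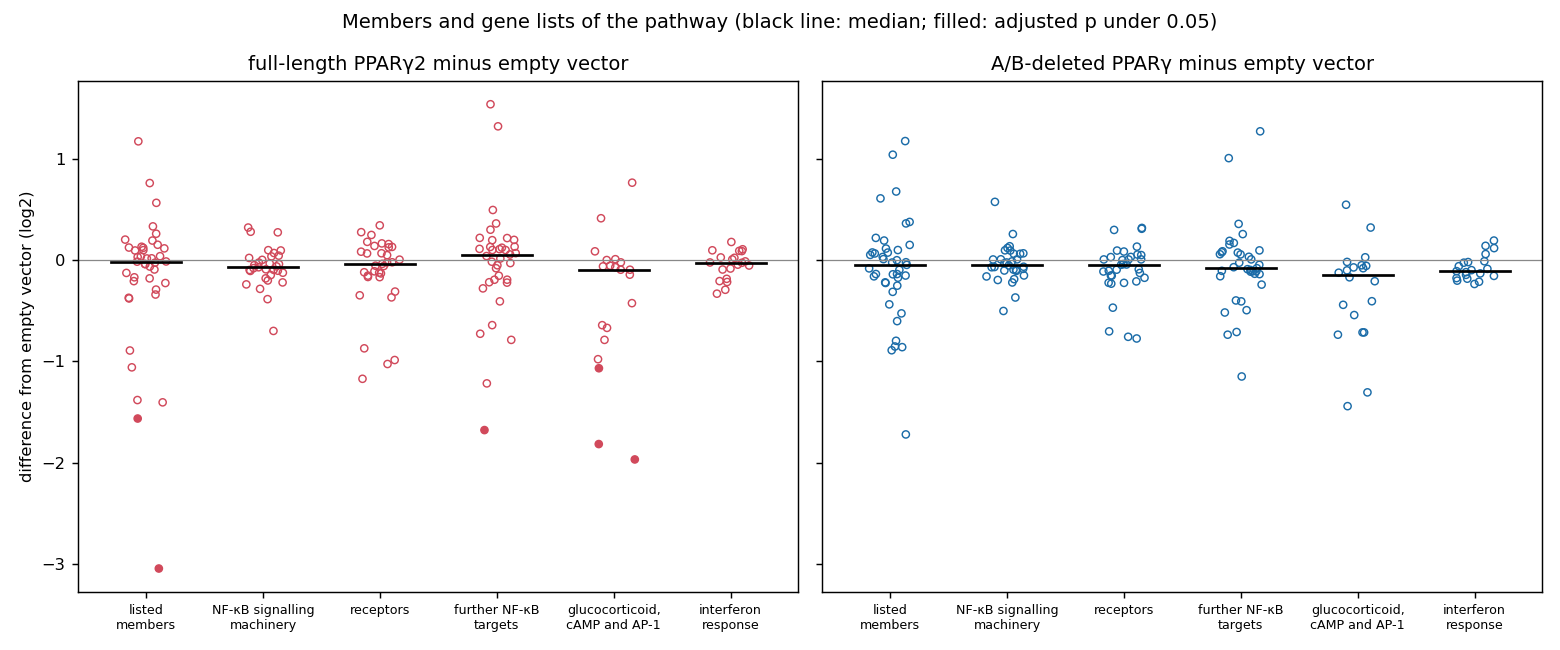
Difference from empty vector on the log2 scale (vertical axis) of the listed members and of 5 lists of the pathway, with full-length PPARγ2 on the left and PPARγCDE on the right; each point is a gene, black lines are medians and filled points passed an adjusted p of 0.05. The medians lie between -0.15 and 0.05, and the called points are Cxcl5 and Vcam1 among the members, Tnfaip6 among further targets, and Cebpd, Egr1 and Jun.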

How the data were processed

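Total RNA of 9 samples was measured on Affymetrix arrays with 1 column of deposited values each. Per the submitters' processing notes the authors used RMA (R 2.5.0, package affy) to make the deposited log2 values. Base 2 was inferred here, since the values' antilogs were multiples of 0.01 for at least 99.858% of each array (tolerance 0.01 of that unit). Such steps, and the values of exactly 0 on 4 arrays (1 to 4 each), are not usual for RMA, so how the values were made stays uncertain. Array medians ran from 6.68 to 6.90, and precision is limited by how many arrays there were. Of 45101 probe sets 34945 had 1 symbol and gave 18193 genes; those with several (932) or no symbol (9160) and 64 controls were left out. Values were used as deposited. Groups and replicate numbers came from the titles; the design text speaks of 3 experiments without saying which arrays belong to each, so p-values measure the spread between arrays, which may be technical.

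Differences were tested with limma 3.58.1 in R 4.3.3 (lmFit, contrasts, eBayes, two-sided, 1 fit over 9 arrays, 3 group means, no block, 6 residual degrees of freedom), with Benjamini-Hochberg adjustment over all genes; Python 3.11.15 was used for tables and figures. The scripts were tested on simulated data. Deviations of arrays of equal number correlated at 0.521 to 0.708 for PPARγCDE against empty vector and at 0.297 to 0.531 for PPARγCDE against PPARγ2, which counted as pairing. For these comparisons the blocked fit is given where it changes a call. For full-length PPARγ2 against empty vector, where number 1 did not pair, its counts are given with the alternatives only. Array values are given for members called in any comparison with or without the block, or differing by at least 0.8; pathway genes are named where called or among the largest of their list, and other genes for their role. The members and lists were chosen with earlier results of these data known. Alternatives were the block, the 6 compared arrays, the mean of probe sets, median subtraction, quantile normalization, a filter at the median level, a trended or robust prior, each array left out and, chosen after seeing the data, the arrays numbered 3 left out.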

Additional observations from a re-analysis of the deposited data

How the results depend on the processing

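The counts of members called with the full-length receptor were 2 lower and 0 higher in every fit without 1 array. In the fit of the 6 compared arrays 1 was lower. Between the full-length and empty-vector arrays number 1 did not pair, with correlations of -0.12, 0.63 and 0.26 for numbers 1, 2 and 3. With the replicate block 6 were lower (Cxcl5, Vcam1, Csf1, Ptgs2, Ccl2 and Ccl7) and 1 was higher (Ptges), where 1.74% and 1.89% of all genes were. In that comparison the block also called 1 gene of the signalling machinery, 5 receptors, 6 further targets and 8 genes of the glucocorticoid, cAMP and AP-1 list, with Junb in both of the last lists. For the deleted receptor the count of 0 became 2 lower and 1 higher with the block and 1 lower without the arrays numbered 3. The median difference of the members moved from -0.02 to -0.16 without the arrays numbered 3, to -0.21 with the filter on low values, which kept 19 members, and to between -0.12 and 0.037 without 1 array. For the deleted receptor it moved from -0.05 to -0.17 without the arrays numbered 3, -0.13 with the mean of probe sets, -0.027 with median subtraction, -0.028 with quantile normalization and between -0.18 and 0.025 without 1 array. Between the receptors it moved from 0.04 to 0.019 with the mean of probe sets, 0.068 with median subtraction and between -0.0009 and 0.075 without 1 array. Medians are the same by construction under the block and the other priors. Differences near 0 turned sign. Without the arrays numbered 3 the difference between the receptors was -0.017 in Icam1, 0.0001 in Ptges and -0.082 in Pparg, and without 1 array it ran from -0.13 to 0.12, -0.26 to 0.084 and -0.25 to 0.57. With the full-length receptor and without 1 array Il6 ran from -0.24 to 0.68, Tslp from -0.32 to 0.16 and Irak2 from -0.11 to 0.83. The cause of these changes was not tested. The 3 arrays per group limit what can be called, and signal near background limits the dim members.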

Other observations

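Single arrays set the level of some members. Il11, a cytokine of the interleukin-6 family, read 8.96 and Csf2 read 8.66 on the third full-length array, against 7.24 and 7.51 and against 6.49 and 6.69 on the other full-length arrays. Ccl5 read 6.10, 5.91 and 6.08 on the arrays numbered 3 of the empty-vector, full-length and deleted groups, and 7.43 to 8.06 on the other 6. Ptx3, a long pentraxin that marks sites of inflammation and a further NF-κB target, read 7.31, 6.17 and 6.84 on the arrays numbered 3 and 10.50 to 12.54 on the others. In each of the 3 numbers Ptx3 was lowest with the full-length and highest with empty vector.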
